A study of Mus musculus with 31 samples.

Results

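The genes described here encode leukocyte integrins and adhesion molecules, 9 in all of the 47069 genes in the deposited tables. They were listed by symbol, with earlier results of these data known, and each symbol matched 1 Ensembl identifier. They are Itgal, Itgam, Itgax, Itga4, Itgb1, Itgb2, Itgb7, Selplg and Cd44. Their RNA was measured in 31 single cells from right lung lobes of adult mice aged 10 weeks, taken 7 days after a sham operation in which the chest was opened. All 31 cells carry the same genotype, Csf1r-GFP, a reporter that marks cells using regulatory sequence of the CSF1 receptor gene, and all had the same sort. The label of the sort reads CD45+, CSF1R-GFP+, F4/80+, Ly6G macrophages, with no sign given for Ly6G. The 31 cells are 1 group. The labels name no animal and do not say whether animals were pooled, so the group counts as 1 sample, cells are not replicates and no p-value was computed.

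Integrins are surface receptors made of an alpha and a beta chain, and neither chain reaches the surface alone. On leukocytes the products of Itgal, Itgam and Itgax (CD11a, CD11b and CD11c) each pair with that of Itgb2 (CD18), and bind ICAM proteins, complement fragments or fibrinogen. The product of Itga4 (CD49d) pairs with that of Itgb1 to bind VCAM1 and fibronectin, or with that of Itgb7 to bind MAdCAM1. Selplg encodes the P-selectin glycoprotein ligand, on which leukocytes roll along vessel walls, and Cd44 encodes the main receptor for hyaluronan. In monocytes these proteins serve rolling, arrest and passage through the endothelium, and CD11c is used as a surface marker of alveolar macrophages and dendritic cells.

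The alpha chains share a short stretch just inside the membrane, which holds the closed form of the receptor. Its coding bases are shown from GENCODE M21 transcripts on GRCm38, since they show how alike the alpha genes are and how separate their reads can still be. Capitals mark the 15 bases of that stretch.
Itgal: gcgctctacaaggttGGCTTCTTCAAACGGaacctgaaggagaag
Itgam: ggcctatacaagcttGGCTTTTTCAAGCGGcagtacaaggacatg
Itgax: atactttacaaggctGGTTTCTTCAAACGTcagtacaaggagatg
Itga4: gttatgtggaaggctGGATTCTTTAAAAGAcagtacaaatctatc
Within the 15 bases, Itgal differed from Itgam and from Itgax at 2 bases each, and Itgam differed from Itga4 at 6. No stretch of 50 bases of Itgal was shared with a transcript of any other gene.

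Itgal, Itgam and Itgax lie on the plus strand of chromosome 7 of GRCm38. Itgal (ENSMUSG00000030830) is at 127296260 to 127335138, Itgam (ENSMUSG00000030786) at 128062640 to 128118491 and Itgax (ENSMUSG00000030789) at 128129547 to 128150657. A gap of 11.1 kb separates Itgam from Itgax. The 250 bases before the start of these neighbours are shown so that they can be set side by side. They are from RefSeq on GRCm38.p6, plus strand, at chr7:128062390-128062639 and chr7:128129300-128129549. Capitals mark the letters GAGGAA or, on the other strand, TTCCTC, 1 form of the site that the myeloid factor PU.1 recognises. Shorter or other forms of the site were not searched.
Itgam: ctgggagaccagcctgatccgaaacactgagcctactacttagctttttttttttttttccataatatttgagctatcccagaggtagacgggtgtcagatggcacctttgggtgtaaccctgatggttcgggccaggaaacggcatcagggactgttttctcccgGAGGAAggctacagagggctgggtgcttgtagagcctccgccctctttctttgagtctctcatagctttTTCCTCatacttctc
Itgax: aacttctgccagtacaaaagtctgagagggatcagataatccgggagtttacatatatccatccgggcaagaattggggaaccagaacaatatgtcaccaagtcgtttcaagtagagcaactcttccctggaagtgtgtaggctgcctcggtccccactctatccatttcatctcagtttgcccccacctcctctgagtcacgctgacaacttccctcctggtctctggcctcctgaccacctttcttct
The letters occur 2 times before Itgam and not before Itgax. Of 32851 RefSeq promoters of this length, 23.3% hold them at least once. Promoters of 6 of the 9 genes were in the table. Those of Itgam, Itgb1 and Cd44 held the letters, and those of Itgax, Itga4 and Itgb7 did not. Any link between the letters and the number of cells that held a gene was not tested.

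A cell is called Lyz2-high here when its FPKM of the lysozyme gene Lyz2 was 1000 or more. FPKM is a read count scaled to transcript length and to the library's depth, so levels of different genes can be set side by side. There were 20 Lyz2-high cells and 11 other cells. The lowest Lyz2-high cell, C7 (cells are named by chip well), had 1229 FPKM of Lyz2, and the highest of the other cells, D10, had 553. Total expected counts ran from 521492 to 4059833 in Lyz2-high cells and from 120835 to 1592301 in the others. Nuclear protein-coding genes took 87.4 to 95.6% of counts in Lyz2-high cells. Of the 11 other cells, 10 were libraries at 32.8 to 61.6%, called low-coding below, and F11 was at 87.9%. No pair of libraries held identical counts. The myeloid genes Tyrobp, Fcer1g and Csf1r were found in 20 of the 20 Lyz2-high cells and Ptprc (CD45) in 19. Adgre1 (F4/80) was found in 15 and Ly6g in 7. Of the 8 genes of the neutrophil list, S100a9, Retnlg, Ltf and Lcn2 were at 0 in all 20. Cxcr2 was present in 10 of the 20 (up to 9.74 FPKM), Csf3r in 9 (up to 189) and S100a8 in 3 (up to 1594), and the list summed to 0 to 1768 FPKM in Lyz2-high cells and 0.64 to 125 in the others. All 7 alveolar macrophage, 5 T cell, 5 NK cell and 5 platelet markers were found in none of the 20.

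**Figure D1:**
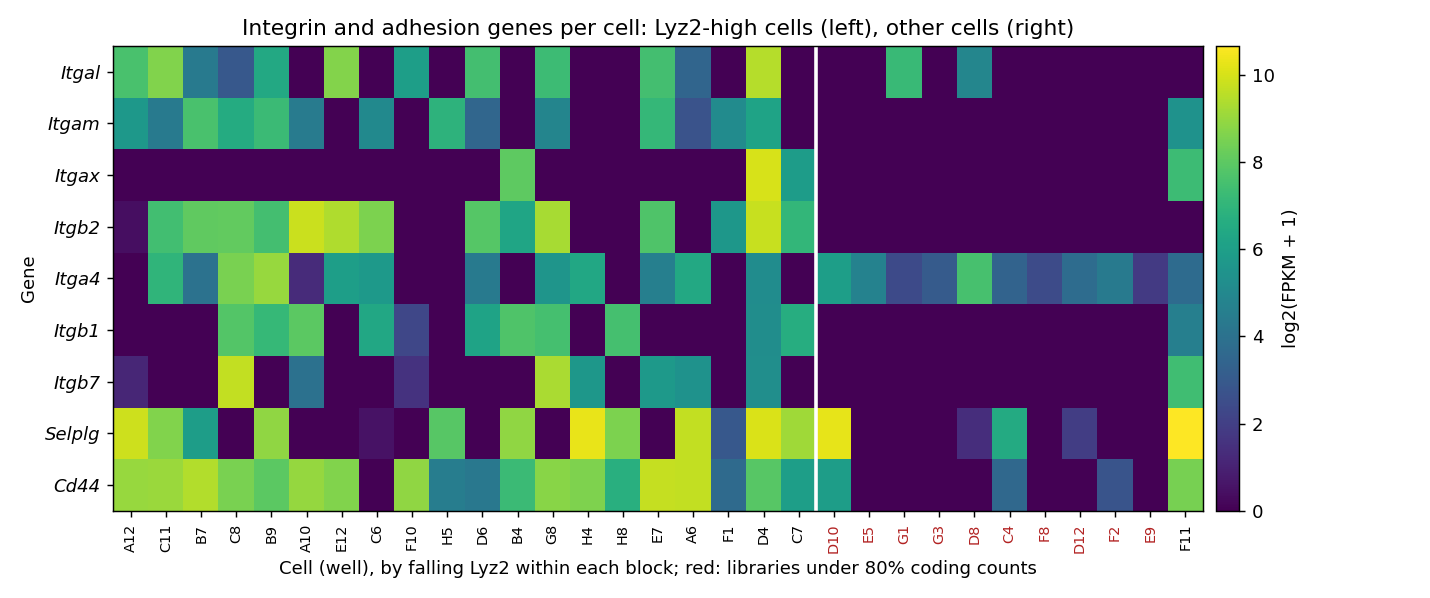
Level of the 9 genes (rows) in each of 31 cells (columns), as log2(FPKM + 1), with the 20 Lyz2-high cells left of the white line and the 11 other cells right of it. Cd44 is found in 19 of the 20 columns on the left, Itgb2 in 14 of them and in 0 on the right, and Itga4 in all 11 columns on the right.

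Adhesion genes were found in most Lyz2-high cells, but few cells held the whole set. A gene counts as present at FPKM 1 or more. Of the 9 genes, 7 were present in at least 50% of the Lyz2-high cells, where 17.3% of the 8272 genes present in 3 or more of the 31 cells were. Lyz2-high cells held 3 to 9 of the genes (median 5.5) and the other cells 1 to 7 (median 2). Cell D4 held all 9, and H5 and H8 held 3 each. Itgam, Itgb2 and Cd44 were present in a share of Lyz2-high cells 50 or more percentage points above the other cells, 3 of 9 genes, against 6.94% of all genes tested. None of the 9 was that far below, against 13.9% of genes. The 11 other cells differ from the 20 in depth and coding share as well as in Lyz2. These cannot be told apart.

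The Itgb2 gene (ENSMUSG00000000290, plus strand of chromosome 10, 77530252 to 77565708), which encodes the shared beta chain, was present in 14 of the 20 Lyz2-high cells (70%), with an exact 95% range by Clopper-Pearson from 45.7 to 88.1%. None of the 11 others held it, and 0 of 11 allows a share of up to 27.3%. These ranges cover counting error over cells only. Over Lyz2-high cells its level ran from 0 to 880.2 FPKM with a median of 174, and it was 0 FPKM in every other cell. Where it was present it rested on 129 to 4859 counts. Cells A10 and D4 stood highest at 880.2 and 875 FPKM. The 6 Lyz2-high cells without it included deep libraries, since H5, H4, A12 and H8 had 4059833, 3526674, 2701937 and 2568955 counts. In A12 it lay below the minimum at 0.3 FPKM, and in the other 5 it was 0.

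Among its alpha partners Itgam was found most often and Itgax least. Itgam, whose product CD11b is the complement receptor of monocytes and neutrophils, was present in 14 of 20 Lyz2-high cells and 1 of 11 others. Its level ran from 0 to 191 FPKM (median 24.2) in Lyz2-high cells, and the single other cell, F11, had 42.8 FPKM. Itgal, whose product CD11a serves firm arrest and crawling on endothelium, was found in 12 of 20 Lyz2-high cells (60%, 36.1 to 80.9%) and 2 of 11 others. It ran from 0 to 699 FPKM (median 14.9) in Lyz2-high cells, and the low-coding libraries G1 and D8 had 150.4 and 28.4 FPKM. Where present, Itgal reached higher levels than Itgam, with medians of 166 and 42.7 FPKM over those cells. Both ranges overlap widely.

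Itgax was found in 3 of 20 Lyz2-high cells (15%, 3.21 to 37.9%) and 1 of 11 others. D4 had 1025 FPKM of it, B4 260.1 and C7 57.5, and F11 had 159. D4, B4 and C7 rested on 4705, 771 and 397 counts, and the remaining 17 Lyz2-high cells had 0 FPKM. With a Lyz2 minimum of 5000 FPKM, which leaves out C7 and D4, its share was 5.56%. It was thus the rarest of the 9 genes in Lyz2-high cells, but not at a low level in those that held it.

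Every Lyz2-high cell that held Itgb2 at FPKM 1 or more also held an alpha partner. Itgb2 and at least 1 of Itgal, Itgam and Itgax were found together in 14 of 20 cells, and Itgb2 without any of them in 0. The reverse was seen in A12, A6, F10 and H5, which held Itgal or Itgam without Itgb2. H4 and H8 held none of these 4 genes. At least 1 alpha gene was present in 18 of 20 cells, which left little room for another outcome. The product of the shares gives 12.6 cells with both, close to the 14 seen. At FPKM 50 or more, Itgb2 was found in 65% of cells and Itgb2 with an alpha gene in 55%. Itgal was the highest of the alpha genes in 8 cells, Itgam in 7 and Itgax in 3. Exactly 1 alpha gene was present in 8 cells, 2 in 9 and all 3 in D4.

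**Figure D2:**
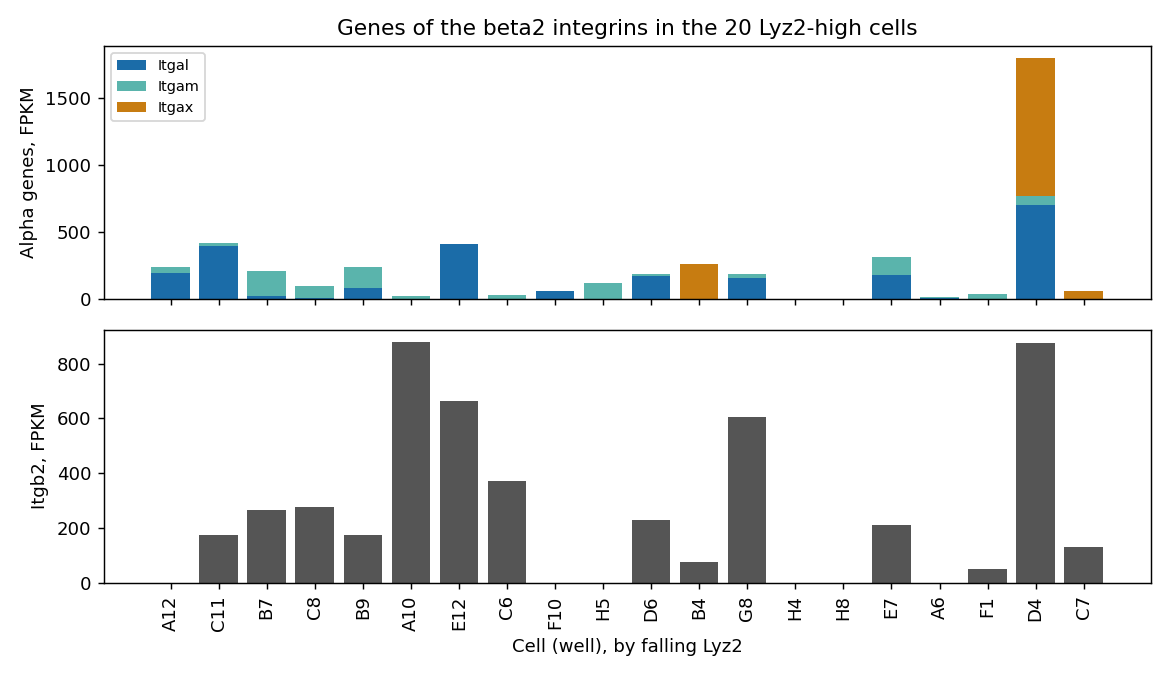
FPKM of Itgal, Itgam and Itgax, stacked (top), and of Itgb2 (bottom) in each of the 20 Lyz2-high cells. D4 has the tallest stack at 1796 FPKM, while A10, with the highest Itgb2 at 880.2 FPKM, has 20.6 FPKM of alpha genes.

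The summed level of the 3 alpha genes varied widely relative to that of Itgb2. In the 14 cells with both, the sum was 0.0234 to 3.45 times the Itgb2 level (median 0.745) and below it in 9 cells. The lowest ratio was in A10 and the highest in B4. Spearman's rho between sum and Itgb2 over these 14 cells was -0.01 and Pearson's r of log2(FPKM + 1) was 0.21. These describe cells of 1 chip with unequal depth.

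Itgam shares its locus with Gm49368, a predicted protein-coding gene on the same strand that spans 128062683 to 128128160 and overlaps Itgam by 55809 bases. Of the 50-base stretches in Itgam transcripts, 66.3% also occur in Gm49368, so the 2 genes share reads. Gm49368 was at most 2.33 FPKM in 18 of the 20 Lyz2-high cells. It was at 454 FPKM in G8 and 140.1 in C8, where Itgam was at 27.7 and 93 FPKM. In these cells Gm49368 took 152 and 338 counts, against 130 and 217 for Itgam. The 454 FPKM in G8 was scaled to a length of 312 bases, and the 140.1 in C8 to 4626. The expected count of Itgam was not a whole number in 4 of the 14 Lyz2-high cells that held it. How far shared reads bear on the Itgam level in G8 and C8 was not tested. Present as Itgam or Gm49368, the locus was found in 85% of Lyz2-high cells, against 70% for Itgam, a setting chosen after seeing the data. The cells added were B4, F10 and H4. In these Itgam was at 0 FPKM and Gm49368 just over the minimum at 1.41, 1.77 and 2.33 FPKM. Itgax shares 8.02% of such stretches with its neighbour Itgad, which was found in no Lyz2-high cell.

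**Figure D3:**
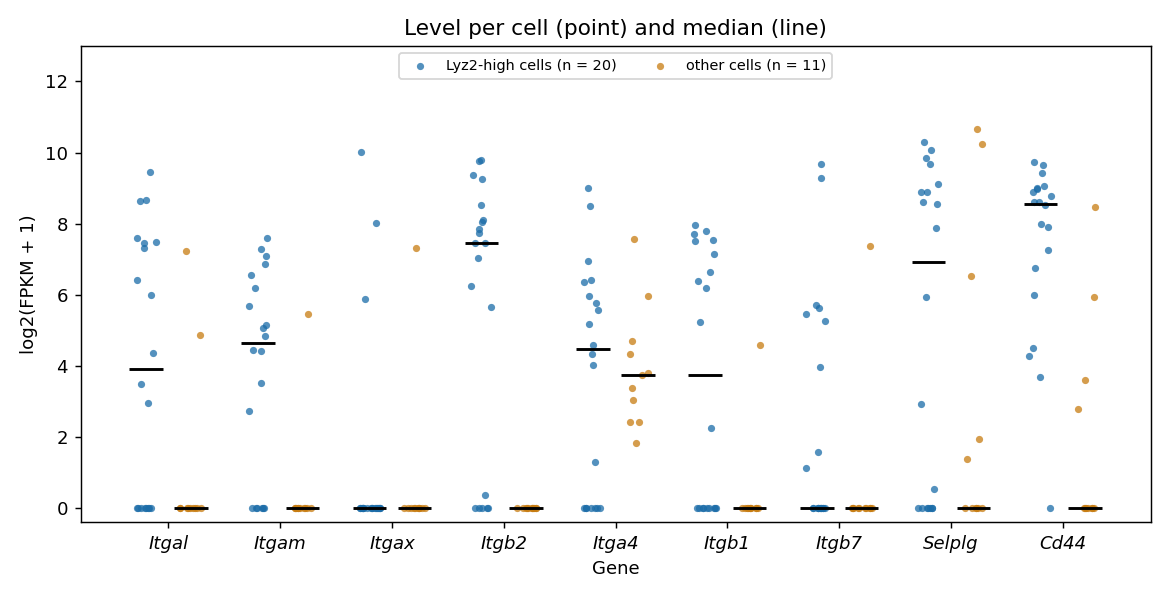
Level of each gene per cell (points) with the median (line), as log2(FPKM + 1), for 20 Lyz2-high cells (left of each pair) and 11 other cells (right). Itga4 is the single gene whose 11 other cells all lie above 0, and Itgb2 the single gene whose 11 other cells all lie at 0.

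Itga4 (ENSMUSG00000027009, plus strand of chromosome 2, 79255426 to 79333123), which encodes CD49d, was found in 13 of 20 Lyz2-high cells (65%, 40.8 to 84.6%) and in 11 of 11 others, 10 of them low-coding. Its level ran from 0 to 509 FPKM (median 21.1) in Lyz2-high cells and from 2.53 to 188 FPKM (median 12.4) in the others, and the ranges overlap. B9 and C8 were highest among Lyz2-high cells with 509 and 360.4 FPKM. In the other cells the counts behind it ran from 2.94 to 528, against 33 to 2765 in the Lyz2-high cells that held it. The expected count was not a whole number in 10 of the 10 low-coding libraries and in 6 of the 13 Lyz2-high cells, by a tolerance of 0.005 counts. RSEM gives such values where it divides reads between genes. The same 10 libraries each also held Cxcr2, Ms4a1 and Pecam1, markers of neutrophils, B cells and endothelium. The B cell list summed to 0 to 1045 FPKM in Lyz2-high cells and 0 to 653 in the others, with Cd79a at 0 in the 20 Lyz2-high cells and Ighm present in 7 of them, up to 1045 FPKM. The endothelial list summed to 0 to 730.2 FPKM in Lyz2-high cells and 3.77 to 400.4 in the others, with Cdh5 and Kdr at 0 and Vwf present in 4 Lyz2-high cells, up to 610.0 FPKM. Their part in the Itga4 result was not tested.

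The 3' end of Itga4 overlaps Cerkl, a ceramide kinase-like gene on the opposite strand, by 2581 bases. Of the 50-base stretches in Itga4 transcripts, 7.51% occur on the opposite strand of other genes, nearly all in Cerkl. The libraries do not mark strand, so reads of the overlap cannot be told apart. Cerkl was present in 5 of 20 Lyz2-high cells and 2 of 11 others, and Itga4 was present in 7 of those 7. D8, the highest of the other cells for Itga4 with 188 FPKM, had 589 FPKM of Cerkl. The other 17 cells with Itga4 had no Cerkl at the minimum.

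The beta partners of Itga4 were found less widely. Itgb1 (ENSMUSG00000025809, plus strand of chromosome 8, 128685654 to 128733200), the beta chain of many matrix receptors, was present in 11 of 20 Lyz2-high cells and 1 of 11 others. It ran from 0 to 249 FPKM (median 20.2), and F11 had 23.1 FPKM. Itgb7 (ENSMUSG00000001281, minus strand of chromosome 15, 102215995 to 102231944), the beta chain of gut-homing integrins, was present in 9 of 20 and in F11 alone of the others. Its levels were uneven, with 826 FPKM in C8 and 624 in G8 and at most 51.9 in the other 18 Lyz2-high cells. C8 and G8 are also the cells with high Gm49368. F11 had 166 FPKM of Itgb7.

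Itga4 was found with Itgb1 in 7 Lyz2-high cells, where the product of both shares gives 7.15, and with Itgb7 in 7, where it gives 5.85. At FPKM 50 or more for presence, these shares were 15% of cells for Itga4 with Itgb1 and 5% for Itga4 with Itgb7, against 35% each at FPKM 1. Itga4 with either beta gene was found in 10 of 20, and with both in A10, C8, D4 and G8. B7, C11 and E12 held Itga4 with neither. Of the 10 low-coding libraries, all of which held Itga4, none held Itgb1 or Itgb7.

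Cd44 (ENSMUSG00000005087, minus strand of chromosome 2, 102811141 to 102901665) was the most widely found of the 9 genes in Lyz2-high cells. It was found in 19 of the 20 (95%, 75.1 to 99.9%) and 4 of the 11 others. Lyz2-high cells ran from 0 to 845 FPKM (median 377), on 81 to 6687 counts where present. The 4 others had 352 FPKM in F11, 60.1 in D10, 11.1 in C4 and 5.84 in F2. C6 was the single Lyz2-high cell without it. E7 and A6 stood highest with 845 and 809.5 FPKM.

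Selplg (ENSMUSG00000048163, minus strand of chromosome 5, 113818536 to 113832644) was found in 12 of 20 Lyz2-high cells and 5 of 11 others. Its level ran from 0 to 1254 FPKM (median 148) in Lyz2-high cells and from 0 to 1613 FPKM (median 0) in the others. H4 and D4 were highest among Lyz2-high cells with 1254 and 1071 FPKM. F11 and D10 were highest among the others with 1613 and 1219.8 FPKM, on 1105 and 270 counts. The other 3 of those cells rested on 8 counts in C4, 2 in D12 and 1 in D8, so that 2 of 11 held Selplg at 10 counts or more, while the 12 Lyz2-high cells had 44.4 or more. Selplg and Cd44 were found together in 12 Lyz2-high cells, which is every Lyz2-high cell with Selplg. Selplg and Itgb2 were found together in 7, where the product of both shares gives 8.4, and the 5 Lyz2-high cells with Selplg but no Itgb2 were A12, A6, H4, H5 and H8. F10 was the single Lyz2-high cell with neither.

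Ordered by mean log2(FPKM + 1) over Lyz2-high cells, Cd44 came first with 7.38 ± 2.52 (SD over 20 cells). Then came Itgb2 with 5.63 ± 3.88 and Selplg with 5.06 ± 4.48. Itgal, Itgam, Itga4 and Itgb1 lay close together at 3.99, 3.87, 3.70 and 3.62. Itgb7 and Itgax came last at 2.39 ± 3.31 and 1.20 ± 2.99. No neighbours in this order differed by more than the SD of their difference over cells. Cd44 exceeded Itgb2 in 12 of 20 cells, by 1.75 on average against an SD of 4.77. Over the cells that held each gene, the order changed for 8 of 9 genes, and Selplg came first and Itgb7 last.

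The length that RSEM assigned to the transcripts weighs on these levels. Dividing each expected count by its FPKM and by the library total gives the effective length in bases behind that value. For Itgb7 it was 2486 to 2503 bases in all 9 Lyz2-high cells that held it. For Selplg it was 215 to 2124 bases over 12 Lyz2-high cells and 185 to 2136 over 5 others. In C11, 76.9 counts of Selplg gave 393 FPKM, while in B7 104 counts gave 60.2 FPKM from a similar library total. For Itgb1 it was 530.0 to 3638 bases, and B4 reached 208 FPKM on 86 counts. For Itga4 it was near 9590.0 bases in most cells and 1724 and 1761 in C8 and B9, its highest cells. Its annotated transcripts run from 1508 to 9767 bases. For Cd44 the effective length was 2151 to 4921 bases in Lyz2-high cells. For Itgax it was 2696 bases in D4, its highest cell, against 3863 in B4 and 3862 in C7. Fold differences between cells thus hold the choice of transcript as well as the read count, most widely for Selplg, Itgb1 and Itga4.

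**Figure D4:**
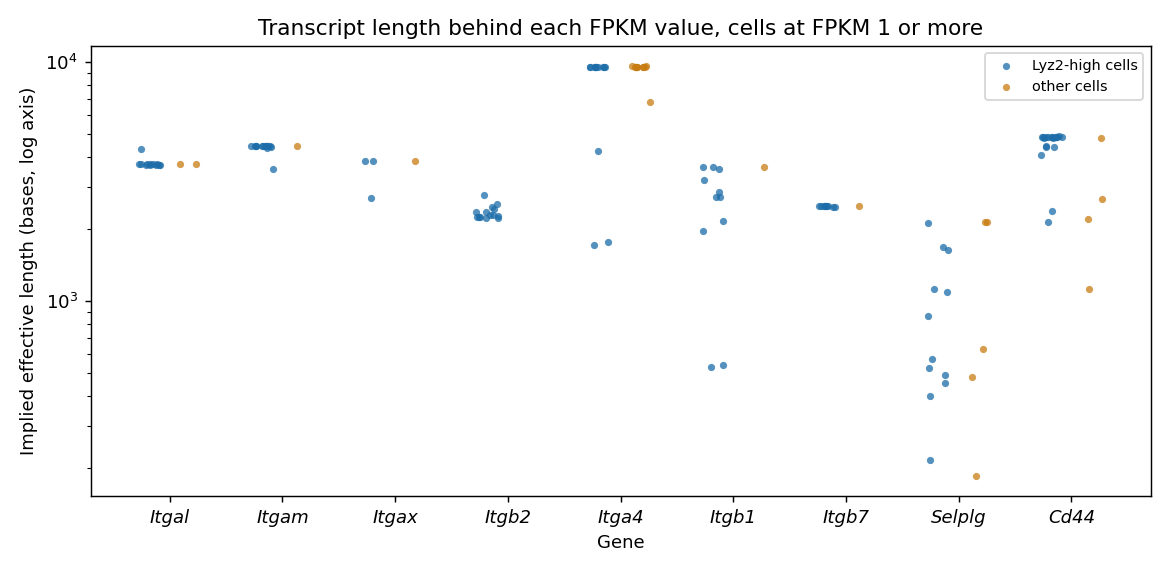
Effective transcript length behind each FPKM value (log axis, bases) for each gene, in Lyz2-high cells (left of each pair) and other cells (right) at FPKM 1 or more. Itgb7 forms a single level near 2495 bases, while Selplg spreads from 185 to 2136 bases.

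Over the 36 pairs of the 9 genes, co-detection was set beside what the single counts give. In 19 pairs the number of Lyz2-high cells with both was within 1 cell of the product of the shares. In 10 it was 1 or more above and in 7 it was 1 or more below. All pairs with Cd44 are among the 19, which was fixed in advance because Cd44 was present in 19 of 20 cells. With Itgal, only 11 or 12 cells were possible, where 11.4 are given. Itgal with Itga4 stood furthest above, in 10 cells where 7.8 are given. Selplg with Itga4 stood furthest below, in 6 where 7.8 are given. Spearman's rho over the 20 cells ran from -0.44 (Itgb2 with Selplg) to 0.5 (Itgb7 with Cd44), with a median of 0.105. For the 5 pairs that form heterodimers it was 0.36 for Itgal and Itgb2, 0.31 for Itgam and Itgb2, 0.13 for Itgax and Itgb2, -0.03 for Itga4 and Itgb1, and 0.32 for Itga4 and Itgb7. These cells share a chip and a sort and differ in depth. The number of the 9 genes present per cell had a rho of -0.45 with the total count and 0.42 with Ptprc.

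**Figure D5:**
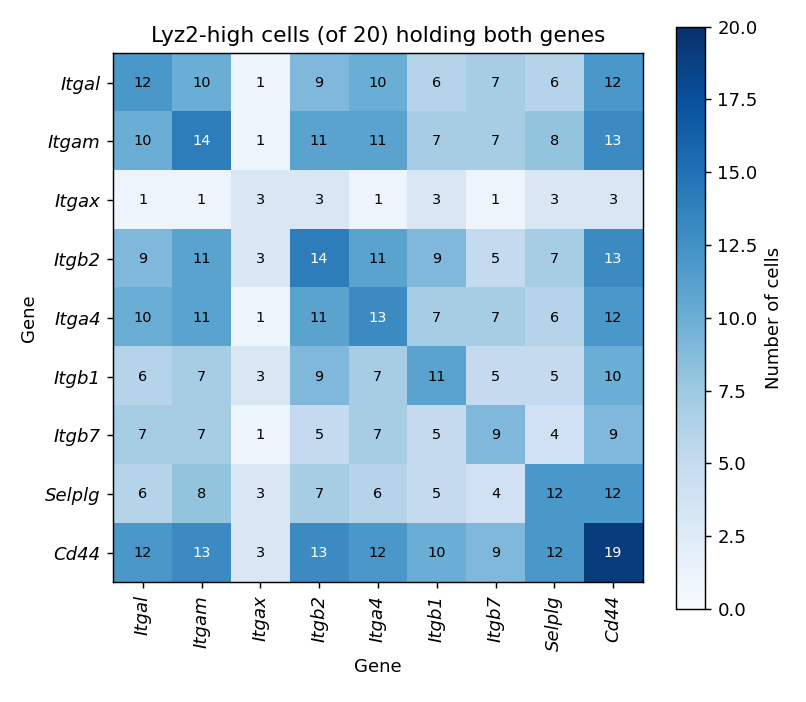
Number of the 20 Lyz2-high cells in which both genes of a pair were present, with the count for each gene alone on the diagonal. Itgb2 and Itgam were found together in 11 cells, and Itgax with Itgal or with Itgam in 1 cell each.

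The adhesion genes were found unevenly in Lyz2-high cells that did or did not hold C1qb, a complement gene of interstitial macrophages. Itgal was present in 0 of the 6 cells with C1qb, against 12 of the 14 without it, and Itgb7 in 0 of 6 against 9 of 14. Itga4 was present in 1 of 6 against 12 of 14. Cd44 was present in 5 of 6 cells with C1qb (median 41.9 FPKM) and 14 of 14 without it (median 456 FPKM). Itgal, Itgb7 and Itga4, 3 of the 9, lay 50 or more percentage points lower with C1qb, against 2.51% of the 5741 genes present in 3 or more Lyz2-high cells, and none of the 9 lay as far above, against 3.31%. Divided instead by Mrc1, another marker of interstitial macrophages, Itgal was present in 1 of 6 cells with it and 11 of 14 without. Itga4 was then present in 2 of 6 against 11 of 14, and Itgb7 in 0 of 6 against 9 of 14. The cells with Mrc1 were mostly the cells with C1qb, so this division is not separate from the first. Median totals were 2177839 counts with C1qb and 1433691 without it. Under the other rules for presence, chosen after seeing the data, Itgal was found in at most 12.5% of cells with C1qb and at least 64.3% of those without it.

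Not all adhesion genes followed that division. Itgam was present in 3 of 6 cells with C1qb and 11 of 14 without, Itgb2 in 4 of 6 and 10 of 14, Itgb1 in 4 of 6 and 7 of 14, and Selplg in 5 of 6 and 7 of 14. Itgax was present in 2 of 6 (B4 and C7) and 1 of 14 (D4). With the classical monocyte gene Ly6c2, Itga4 was present in 9 of 10 cells against 4 of the 10 without it, and Itgb7 in 7 of 10 against 2 of 10. These 2 genes, of 9, lay 50 points higher with Ly6c2, against 2.13% of those 5741 genes, and none as far below, against 2.04%. Itgax was present in 0 of 10 cells with Ly6c2 and 3 of 10 without it. The divisions by C1qb and by Ly6c2 overlap, since 0 cells held both and the 6 cells with C1qb are all among the 10 without Ly6c2. In the 4 cells with neither gene, Itgal was present in 4, Itga4 in 3 and Itgb7 in 2.

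Genes for integrin activation and linkage ranged from nearly every Lyz2-high cell to none. Of 26 such genes, 12 were present in at least 50% of Lyz2-high cells, where 17.3% of all genes tested were, and Fermt1, Fermt2 and Skap1 were in none. The talin gene Tln1, whose product binds beta tails and switches integrins on, was present in 19 of 20 (median 129 FPKM). Rap1b, a small GTPase upstream of talin, and the adaptor gene Fyb were each also present in 19, at medians of 524 and 179 FPKM, and the kinase gene Lyn in 16. Fermt3, which encodes the kindlin of blood cells, was present in 13. Other genes of the link to actin were found in fewer cells, with Ilk in 8, the paxillin gene Pxn in 4, the vinculin gene Vcl in 2, Parvb in 2, and Parvg and Tln2 in 1 each. Of 19 other integrin chains, 1 was present in 50% of the cells, Itgav (10 of 20, up to 372 FPKM), against the same 17.3%. Since the 19 were not filtered and 13 of them were in no Lyz2-high cell, these shares cannot be set side by side. Itga5 was present in 4, Itgb5 in 3 and Itga6 in 2. Itga1, Itga2, Itga2b, Itga3, Itga7, Itga9, Itga10, Itga11, Itgad, Itgae, Itgb4, Itgb6 and Itgb8 were present in none of the 20.

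Ligands and counter-receptors ranged from 16 of 20 Lyz2-high cells to none. The lists in this paragraph were not filtered for presence in 3 or more cells, as the genes behind the 17.3% were. Of 24 genes, 4 were present in at least 50% of Lyz2-high cells, against 17.3% of all genes tested: the fibronectin gene Fn1 (16 cells, median 123 FPKM), Cd47 (16, 185 FPKM), the adhesion gene Ninj1 (11, 90.3 FPKM) and the thrombospondin gene Thbs1 (10, 3.2 FPKM). Icam1 was present in 7. Icam2, Icam4, Madcam1, Sele, Jam2, Jam3, Vtn, Fga, Fgb, Fgg, Has1, Has2 and Has3 were present in none. Of the 13 genes that glycosylate selectin ligands or shed adhesion molecules, 1 reached 50% of cells, against 17.3% of all genes tested, the sheddase gene Adam17 (14 of 20 Lyz2-high cells and 11 of 11 others). Galnt1 and Tpst2 were present in 9 each and Adam10 and St3gal4 in 7 each. Fut7, which builds the selectin-binding sugar on PSGL1, and Tpst1 were present in none. Of 5 genes that tie the tails of CD44 and PSGL1 to the cell cortex or sort them, the moesin gene Msn was present in 17 (median 105 FPKM), Ezr in 11, Snx20 in 9, Rdx in 5 and Nf2 in none.

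For each of the 8 genes present in 8 or more Lyz2-high cells, 1151 genes found in at least 50% of those cells were ranked by Spearman's rho over the 20 cells. Being the highest of so many, these values are descriptions. Cd44 was most like Tmsb10 (rho 0.85), C3 (0.85) and S100a6 (0.83). Itgb7 was most like the coagulation factor gene F10 (0.79), Klf4 (0.75) and Dennd5a (0.73). Itgal was most like Gngt2 (0.73), Nfkb1 (0.71) and Spag9 (0.70), and Itgb2 most like Ilf2 (0.73), Nadk (0.69) and Ndufa13 (0.69). Itga4 was most like Gsr (0.72), Ankrd11 (0.71) and Tnfaip2 (0.71), and Selplg most like Tifa (0.73), Rap1a (0.66) and Nsa2 (0.65). Itgam was most like Qsox1 (0.70), Selenok (0.63) and Ubl3 (0.63), and Itgb1 most like Cnih4 (0.62), Adgre1 (0.60) and Zfp36 (0.58). Itgb7 and Itgax, present in less than 50% of those cells, were not among the genes ranked. None of the remaining members of the set was among the 3 most like another.

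F11 and D4 stood apart in how they combined these genes. F11 had 0 FPKM of Lyz2 and of Itgb2, yet held 7 of the 9 genes, with Itgax at 159 FPKM, Itgam at 42.8, Cd44 at 352 and Selplg at 1613. It was the single cell among the 11 others to hold Itgam, Itgax, Itgb1 or Itgb7. D4 held all 9 genes with the highest levels of Itgal (699 FPKM) and Itgax (1025 FPKM) of the 31 cells. Its summed level of the 9 genes was 4087 FPKM, where the median of Lyz2-high cells was 1484. Its Lyz2, at 4075 FPKM, was the second lowest of the Lyz2-high cells, and its Ptprc, at 1440.2 FPKM, the highest of the 31.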

How the data were processed

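RNA of 31 sorted single cells was captured on a Fluidigm C1 chip, amplified with a SMARTer kit and made into Nextera XT libraries, per the labels' protocols. That chemistry does not mark strand. RSEM, Trimmomatic and CASAVA 1.8 are named with build GRCm38, per the submitters' processing notes. Aligner, annotation and filters were not given in the sources used here. As files, the authors deposited RSEM expected counts, which are estimated and need not be whole, and FPKM values, scaled by the authors to transcript length and library depth. Of 75 columns of counts, 31 matched sample titles and 44 were not used. Without molecular identifiers, amplified copies count as reads.

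Presence was set at FPKM 1 or more and Lyz2-high at 1000 FPKM. Shares have exact Clopper-Pearson 95% intervals, and the limit for a count of 0 is 3 cells of the total. With 1 sample no test was made. Symbols and coordinates came from GENCODE M21 (GRCm38), and sequence overlap was searched with stretches of 50 bases. A gene's 3 most like genes were ranked without ribosomal protein, mitochondrial and predicted genes. The genes named are the 9 members, these most like genes, and, in each context list, the 4 found in most cells and those found in none. Fermt3, Ilk, Pxn, Vcl, Parvb, Parvg, Tln2, Icam1, Gm49368 and Cerkl are named besides, picked with their values known. Some genes of the lists are not reported here. Members and lists were chosen with earlier results of these data known. Python 3.11.15, pandas 2.3.3 and scipy 1.17.1 were used.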

Additional observations from a re-analysis of the deposited data

How the results depend on the processing

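The median number of the 9 genes per Lyz2-high cell was 5.5, and it ran from 4 (FPKM 50 or more) to 6 (expected count of 1 or more) over the alternatives, with 5.38 after thinning every cell to 120829 counts. The share of Lyz2-high cells with Itgb2 and an alpha partner was 70%, and ran from 55% (FPKM 50 or more) to 75% (expected count of 1 or more). Of 64 recomputed shares of Lyz2-high cells with a single gene, 61 stayed inside the main value's interval. The 3 that did not were at FPKM 50 or more, where Itgam and Itga4 were each found in 35% of cells and Itgb7 in 15%. Itgam with Itgb2 was then found in 25% of cells, against 55% at FPKM 1, Itga4 with Itgb1 in 15% and Itga4 with Itgb7 in 5%, against 35% each. Raising the Lyz2 minimum to 5000 FPKM left 18 cells, with Itgax in 5.56%, and lowering it to 100 gave 25, with Itgax in 12%; the main share was 15%. Of 32 repeats of the lists of most like genes, 13 kept at most 1 of 3 genes, so those lists depend on the settings. With counts scaled to depth but not to length, a setting added after the data were seen, Selplg took rank 6 in place of 3 and Itga4 rank 3 in place of 6. No paired analysis was possible because the 31 cells are 1 group. Presence at this depth cannot tell a gene that a cell does not use from one lost in capture.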
